A study of Mus musculus with 4 samples.

Results

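Syndecans, glypicans and large proteoglycans are proteins that carry long sugar chains, the glycosaminoglycans, on a protein core. The 10 members described here are the syndecan genes Sdc1, Sdc2, Sdc3 and Sdc4, the glypican genes Gpc1, Gpc3, Gpc4 and Gpc6, the perlecan gene Hspg2 and the versican gene Vcan. The rule that selects their probe sets uses gene names and no measured values, and takes every probe set of the array that names exactly 1 of these genes. The members, and the lists of related genes below, were chosen with earlier results of these data known. Shares of all genes set beside their counts are thus description and not a test. It gave 32 of 34945 probe sets that name 1 gene, and 10 of 18193 genes.

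The RNA came from the molar teeth, extracted manually, of 60 Swiss-Webster pups of both sexes, aged 1 to 10 days after birth, and pooled before extraction. It was hybridised to 4 Affymetrix Mouse Genome 430 2.0 arrays, on which a set of short probes reports a transcript. There was 1 group, with no treatment and no genetic change in the labels, and the tissues with which the study set it side by side are not analysed here. The pool mixes ages, animals and cell types, and the SD over the 4 arrays is technical, so p-values measure only that technical spread.

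Syndecans span the cell membrane, and glypicans are held on it by a lipid anchor. Both carry mainly heparan sulfate, a sulfated chain that binds growth factors, morphogens and matrix proteins and so sets where these signals reach their receptors. Perlecan is the heparan sulfate proteoglycan of basement membranes and also fills the stellate reticulum of the enamel organ, and versican is a chondroitin sulfate proteoglycan that binds hyaluronan in loose connective tissue such as dental pulp. In tooth development, syndecan-1 is known from the dental epithelium and from the condensing mesenchyme beneath it.

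All 10 member genes were above background in the molar pool. A probe set was called above background when its signal exceeded, on each of the 4 arrays, the 95th percentile of 86 probe sets for olfactory, vomeronasal and taste receptor genes, a threshold of 1163 ± 142 signal units (SD, n = 4 arrays; 996 to 1295). A gene was called when any of its probe sets passed. By this rule 51.6% of all genes were above background. The members were chosen with earlier results known, so setting them beside this share is no test. By probe set the members gave 25 of 32, against 42.5% of all probe sets that name 1 gene. A gene with more probe sets passes more easily: 35.2% of genes with 1 probe set, 60.1% with 2, 73.4% with 3 and 82.1% with 4 or more were above background. Among the members, Gpc1 and Gpc3 had 1 probe set each, Sdc4, Gpc4 and Hspg2 had 2, Sdc3 had 3, and Sdc1, Sdc2, Gpc6 and Vcan had between 4 and 8. Every probe set passed for 7 members, namely Sdc1, Sdc3, Sdc4, Gpc1, Gpc3, Gpc4 and Hspg2, against 27.8% of all genes.

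The limma test of log2 signal over the threshold, one-sided and adjusted by Benjamini-Hochberg over all probe sets that are not controls, called the same number of member probe sets, 25 of 32, against 41.8% of all probe sets that name 1 gene. The adjusted limma p-values of these 25 ran between 4.29e-15 for Vcan and 0.000519 for a Gpc6 probe set. The median log2 signal of the 10 genes, each by its brightest probe set, was 14.21, against 10.72 for all genes. A gene with more probe sets has more chances of a bright one, which also holds for the list medians below. Signal depends on how well each probe binds, so signals of different probe sets are not read here as amounts of mRNA, and no order of abundance among the members is given. In this bulk pool, fewer cells of a type and less RNA per cell cannot be told apart.

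Stretches upstream of the transcript start are shown for Sdc1 and Sdc4, the syndecans in which a TATAA match was found, and for Gpc3 and Gpc4, which lie next to each other on the X chromosome and were both above background. They are the last 150 bases before the start, from RefSeq's GRCm38.p6 annotation, 5′ to 3′ on the gene's own strand, with capitals for the GC box GGGCGG or its reverse CCGCCC and for TATAA or its reverse TTATA. Regions are chr12:8771246-8771395 on the plus strand for Sdc1, chr2:164443189-164443338 on the minus strand for Sdc4, chrX:52613975-52614124 on the minus strand for Gpc3, and chrX:52164924-52165073 on the minus strand for Gpc4.
Sdc1: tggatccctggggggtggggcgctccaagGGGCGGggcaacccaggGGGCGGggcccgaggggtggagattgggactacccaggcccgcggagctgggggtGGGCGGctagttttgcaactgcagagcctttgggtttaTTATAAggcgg
Sdc4: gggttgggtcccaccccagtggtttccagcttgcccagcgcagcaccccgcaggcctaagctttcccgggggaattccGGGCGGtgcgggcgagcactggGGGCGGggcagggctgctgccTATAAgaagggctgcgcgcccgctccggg
Gpc3: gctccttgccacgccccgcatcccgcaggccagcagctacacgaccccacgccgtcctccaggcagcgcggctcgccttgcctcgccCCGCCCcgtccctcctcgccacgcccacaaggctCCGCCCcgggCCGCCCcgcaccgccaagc
Gpc4: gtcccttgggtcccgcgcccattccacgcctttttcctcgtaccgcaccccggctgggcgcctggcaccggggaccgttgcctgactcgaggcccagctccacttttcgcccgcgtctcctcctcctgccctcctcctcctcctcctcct
Sdc1 held 3 GC boxes and a pair of overlapping TATAA and TTATA matches, Sdc4 held 2 GC boxes and 1 TATAA, Gpc3 held 3 GC boxes, and Gpc4 held 0 of either motif. The table matched 7 of the 10 members, of which 6 had a GC box and 2 a TATAA match within these 150 bases, against 28.6% and 14.2% of all 32851 windows. The member windows were rich in G and C, with a median of 72.0% against 54.0% for all windows. These are matches of letters, and the arrays do not measure the activity of a promoter.

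**Figure D1:**
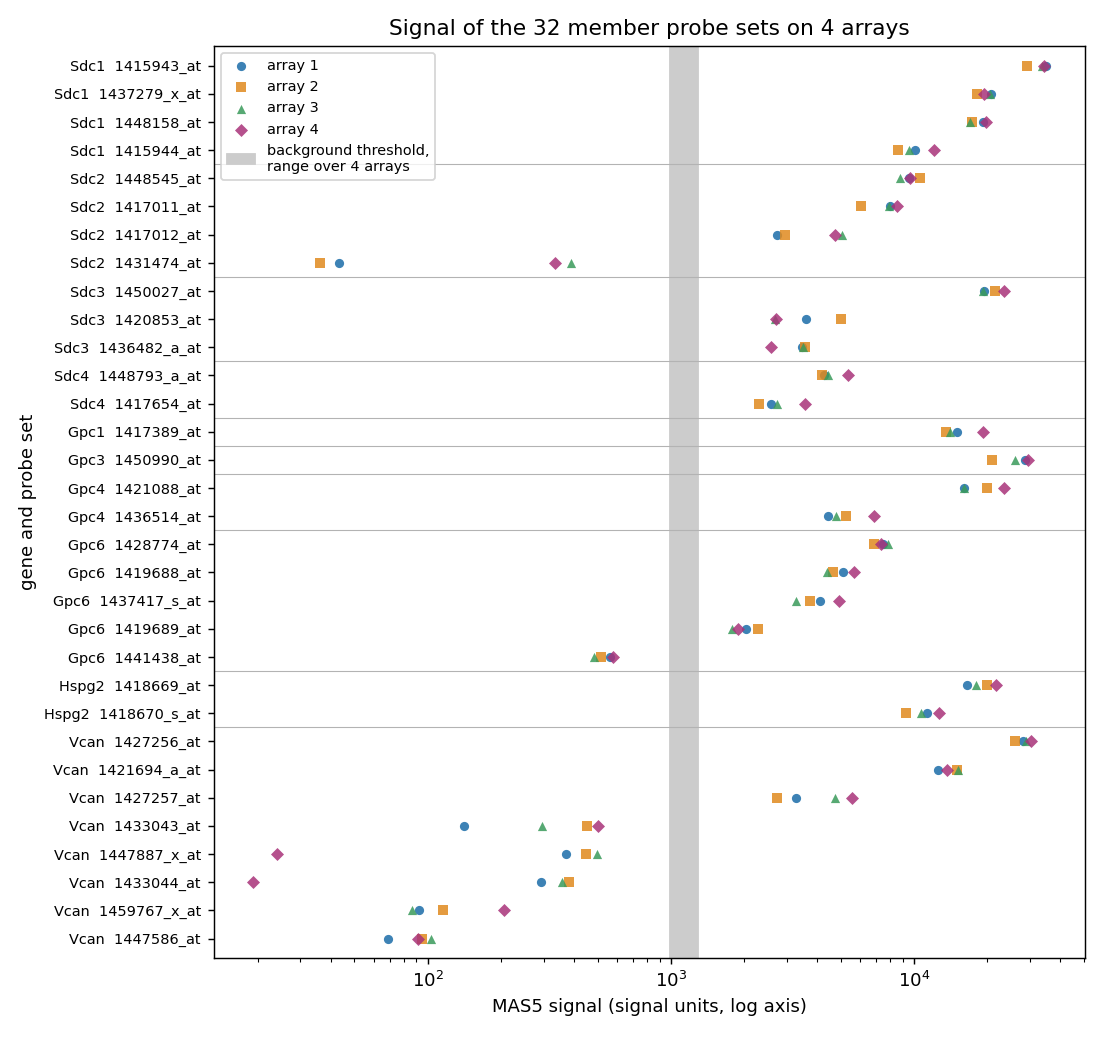
Signal of each of the 32 member probe sets (rows, grouped by gene) on the 4 arrays (points), on a log axis in signal units, with the range of the background threshold over the arrays as a grey band. All points of 25 probe sets lie right of the band, and all points of 1 Sdc2, 1 Gpc6 and 5 Vcan probe sets lie left of it.

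Syndecan genes passed with 12 of 13 probe sets, against 42.5% of all probe sets. Sdc1 had signals of 34870, 29045, 33767 and 34348 on arrays 1 to 4 by its brightest probe set (1415943_at), a mean of 33008 ± 2680 (SD, n = 4) or 28.5-fold the threshold. The lowest array was array 2, and the highest value was 1.20-fold the lowest. The other Sdc1 probe sets averaged 19706 ± 1171, 18326 ± 1402 and 10092 ± 1472, and all 4 passed on every array with adjusted limma p-values between 4.49e-15 and 5.43e-13. The first of these others (1437279_x_at) has a suffix that marks sequence shared with other transcripts.

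Sdc2, a syndecan of mesenchymal cells, had signals of 9566, 10578, 8803 and 9676 (1448545_at), a mean of 9656 ± 727 (SD, n = 4) and 8.33-fold the threshold. These 4 values lie close together, with a highest over lowest ratio of 1.20. A probe set designed on the same source sequence (1417012_at) had 2732, 2947, 5036 and 4728, so that arrays 3 and 4 were both higher than arrays 1 and 2. A further probe set on that sequence (1417011_at) averaged 7606 ± 1087 and was lowest on array 2. The fourth (1431474_at), on another source sequence, had 43.3, 36.0, 387 and 335 and exceeded the threshold on 0 arrays. The Sdc2 call thus rests on 3 of its 4 probe sets, and the spread of the dim one, an SD of 1.85 on the log2 scale, is wider than that of any Sdc2 probe set that passed.

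Sdc3, the syndecan best known from nerve and muscle, had signals of 19332, 21499, 19206 and 23486 (1450027_at), a mean of 20881 ± 2030 (SD, n = 4) and 18.0-fold the threshold. All 4 arrays were far above background, and array 4 was the highest. A probe set on the same source sequence (1420853_at) had 3605, 5006, 2683 and 2707, with array 2 the highest. The brighter of the pair exceeded the dimmer by between 4.29-fold and 8.68-fold on the single arrays, so the size of the Sdc3 signal depends on the probe set while the call does not. The third Sdc3 probe set (1436482_a_at) had 3476, 3547, 3513 and 2585, with array 4 apart below the others.

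Sdc4, a syndecan of focal adhesions, had signals of 4261, 4196, 4442 and 5370 (1448793_a_at), a mean of 4567 ± 545 (SD, n = 4) and 3.93-fold the threshold, with an adjusted limma p of 3.1e-10. Its other probe set (1417654_at) had 2583, 2305, 2740 and 3560. Both probe sets were highest on array 4 and lowest on array 2. The Sdc4 value over the threshold was the smallest among the 10 members when each is taken by its brightest probe set, which is a statement about signal over background and not about mRNA.

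Glypican genes passed with 8 of 9 probe sets, against 42.5% of all probe sets. Gpc1, a glypican known mainly from the nervous system, had signals of 14994, 13593, 14103 and 19298 on its only probe set, a mean of 15497 ± 2599 (SD, n = 4) and 13.3-fold the threshold. Array 4 was the highest, 1.42-fold the lowest. Gpc3, whose loss causes an overgrowth syndrome in humans and whose product binds hedgehog proteins, had 28588, 20975, 26146 and 29494 on its only probe set, a mean of 26301 ± 3822 and 22.5-fold the threshold. Array 2 was the lowest, and all 4 arrays were far above background, with an adjusted limma p of 1.25e-14.

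Gpc4, a glypican involved in Wnt and FGF signalling, had signals of 16002, 19962, 15999 and 23538 (1421088_at), a mean of 18875 ± 3626 (SD, n = 4) and 16.1-fold the threshold. Its other probe set (1436514_at) had 4413, 5270, 4769 and 6850. In both, array 4 was the highest and array 2 the next. In the reference gene table no protein-coding gene lies between Gpc4 and Gpc3, and both genes of this pair were above background. The genes on the outer sides of the pair, 1700080O16Rik and Ccdc160, were not.

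Gpc6, whose loss shortens the limbs in humans, had signals of 7479, 6832, 7827 and 7309 (1428774_at), a mean of 7362 ± 414 (SD, n = 4) and 6.36-fold the threshold. The SD of log2 signal, 0.08, was the smallest of the 25 member probe sets that passed. The probe set nearest to the threshold from above was also one of Gpc6 (1419689_at), with 2041, 2280, 1781 and 1896, a log2 value of 0.78 over the threshold and an adjusted limma p of 0.000519. The nearest from below was a Gpc6 probe set (1441438_at) with 564, 519, 482 and 581. Gpc6 thus had probe sets on both sides, 4 above and 1 below. Its neighbour in the reference gene table, Gpc5, had 256 ± 100 (SD, n = 4) on 1 probe set and exceeded the threshold on 0 arrays.

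Of the large matrix proteoglycans, Hspg2 passed with both probe sets and Vcan with 3 of 8, and their joint 5 of 10 is close to the 42.5% of all probe sets. Hspg2 had signals of 16501, 19877, 18053 and 21720 (1418669_at), a mean of 19037 ± 2259 (SD, n = 4) and 16.4-fold the threshold. The other Hspg2 probe set (1418670_s_at) averaged 10991 ± 1425. Both were highest on array 4, and they differed on which array was lowest, array 1 for the first and array 2 for the other.

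Vcan had signals of 28016, 25986, 28863 and 30266 (1427256_at), a mean of 28283 ± 1790 (SD, n = 4) and 24.4-fold the threshold, with an adjusted limma p of 4.29e-15. The arrays lay within a 1.16-fold range. A probe set on the same source sequence (1427257_at) had 3288, 2743, 4755 and 5539, so arrays 3 and 4 were higher than arrays 1 and 2, and the brighter of the pair exceeded it by between 5.46-fold and 9.47-fold on the single arrays. The third that passed (1421694_a_at) averaged 14082 ± 1246.

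The other 5 Vcan probe sets had mean signals between 89.6 and 347 and exceeded the threshold on 0 arrays each. Among them, 1447887_x_at had 371, 449, 497 and 24.0, and 1433044_at had 292, 380, 358 and 19.2, with array 4 far below the other arrays in both. The dimmest, 1447586_at, had 68.8, 94.6, 104 and 91.6. Among the 3 Vcan probe sets that passed, the means spanned 6.93-fold. The files do not say which transcript form each Vcan probe set reports. Taken by its median probe set, Vcan was not above background, under a rule that called 34.7% of all genes. Where a gene has an even number of probe sets, the median here is the dimmer of the middle pair.

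The enzymes that build the chains were measured beside the cores. The 11 lists of related genes, chosen with earlier results of these data known, held 143 genes, of which 136 were measured. Of these, 104 (76.5%) were above background, against 51.6% of all genes. Their values below are means of the brightest probe set ± SD over the 4 arrays. Some of these probe sets have a suffix that marks shared sequence, among them those of Pxylp1, B4galt7, Ext2 and Sulf2. Where every probe set of a gene had to pass, the count was 54 of the 136, against 27.8% of all genes. List medians below are on the log2 scale, where the median of all genes was 10.72.

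**Figure D2:**
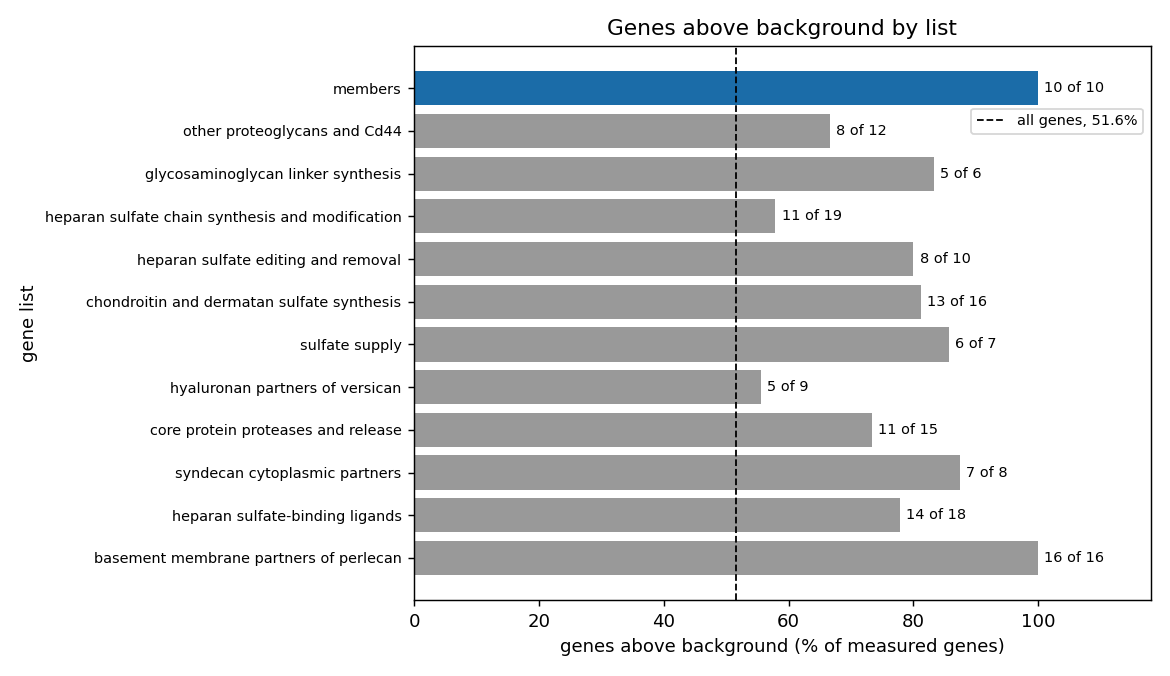
Share of measured genes above background (horizontal axis, in percent) for the 10 members and the 11 related lists, with the number of genes at the end of each bar and the share of all genes, 51.6%, as a dashed line. The members stand at 10 of 10 and the basement membrane list at 16 of 16, and the hyaluronan list, at 5 of 9, is the bar closest to the line.

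Linker synthesis attaches the short sugar bridge on which each chain is built. Of 6 measured linker genes 5 were above background, against 51.6% of all genes, with a list median of 11.64 on the log2 scale against 10.72 for all genes. Pxylp1, a phosphatase that releases the linker for extension, had a signal of 26336 ± 2977, Fam20b, the kinase that acts before it, 8459 ± 1517, the glucuronyltransferase gene B3gat3 6085 ± 854, and the galactosyltransferase gene B4galt7 1669 ± 281. Xylt2, a xylosyltransferase that starts the linker, had 690 ± 415 and exceeded the threshold on 1 array. When each gene was taken by its median probe set, 2 of the 6 passed, against 34.7% of all genes. For a gene with 2 probe sets, such as B3gat3 and B4galt7, that is the dimmer one. With every probe set of a gene required, 0 of the 6 passed, against 27.8% of all genes.

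Heparan sulfate synthesis genes were above background for 11 of 19 measured members, a share of 57.9% against 51.6% of all genes, with a list median of 11.15 on the log2 scale. The copolymerase genes Ext2 and Ext1, which extend the chain, had signals of 17876 ± 3756 and 10718 ± 1230. The sulfotransferase genes Hs2st1 and Hs6st1 had 11174 ± 503 and 8616 ± 357. Members not above background included Extl1 at 676 ± 253, with 0 arrays over the threshold, and the 3-O-sulfotransferase genes Hs3st1 at 1027 ± 610 and Hs3st2 at 1640 ± 495, each over it on 3 arrays. Other Hs3st genes were named after their values were seen. Of these, Hs3st3b1 at 2751 ± 562 and Hs3st6 at 2268 ± 276 were called, while Hs3st3a1 and Hs3st4 were not. With every probe set required, 4 of the 19 passed, against 27.8% of all genes.

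Genes that edit or remove heparan sulfate were above background for 8 of 10 measured members, with a list median of 12.46. Sulf1 and Sulf2, extracellular enzymes that take off 6-O-sulfate groups, had signals of 15565 ± 1037 and 11092 ± 3573. The lysosomal sulfatase gene Ids had 13543 ± 794, by the 1 of its 6 probe sets that passed. Heparanase, Hpse, which cuts the chain, had 7320 ± 707. Hpse2 had 148 ± 104 with 0 arrays over the threshold, and the lysosomal sulfamidase gene Sgsh had 1691 ± 421 with 3. With every probe set required, 5 of the 10 passed, against 27.8% of all genes.

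Chondroitin and dermatan sulfate synthesis genes, which make the chains of versican, were above background for 13 of 16 measured members. The share of all genes was 51.6%, and the list median was 11.46. Chst11, a 4-O-sulfotransferase, had 17433 ± 1200, Dsel, an epimerase of dermatan sulfate, 13627 ± 850, and the polymerising enzymes Chpf2 and Chsy1 had 10995 ± 1095 and 9789 ± 1710. Chst3, a 6-O-sulfotransferase, had 248 ± 227, Chst7, another, 216 ± 194, and Chsy3 103 ± 21.9, each with 0 arrays over the threshold. Sulfate supply genes import sulfate and make its activated form. Of these, 6 of 7 measured were above background, against 51.6% of all genes (list median 12.52). Papss2 had 21622 ± 2633, Papss1 17489 ± 1316, the transporter gene Slc26a2 7751 ± 432 and the Golgi carrier gene Slc35b2 5875 ± 727. Slc26a1 had 583 ± 145 and passed on 0 arrays.

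Hyaluronan genes, which make, bind or cut the polymer that versican binds, were above background for 5 of 9 measured members, a share of 55.6% against 51.6% of all genes, and their list median of 10.54 lay below the 10.72 of all genes. Hyal2, a hyaluronidase, had 3861 ± 428, the link protein gene Hapln1 3477 ± 522, the synthase gene Has3 2966 ± 335 and the hyaluronan-binding gene Tnfaip6 2555 ± 639. Has1 had 470 ± 315, Hapln2 531 ± 525 and Hapln3 815 ± 159, none of which passed on more than 1 array. Hapln1 and Vcan are neighbours in the reference gene table, and both were above background, while Xrcc4, on the other side of Vcan, was not. A link between position and signal was not tested.

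Proteases and other enzymes that cut or release the cores were above background for 11 of 15 measured members, with a list median of 12.75. The cathepsin gene Ctsl had 33866 ± 1099, the membrane protease genes Mmp14 and Adam10, which can shed syndecans, had 29849 ± 2612 and 27837 ± 3882, and Adamts9, a versican-cleaving protease, had 15861 ± 1359. Adamts1 at 1627 ± 340 and Adamts15 at 1162 ± 207 were over the threshold on 3 arrays each, and Adamts20 at 879 ± 140 on 1, so these versican-cleaving proteases were not called. Adamts4 at 2359 ± 410 and Adamts5 at 2221 ± 322, on the same list and named after their values were seen, were called. The next list holds genes whose products bind the cytoplasmic tails of syndecans or link them to the cell skeleton. Of these, 7 of 8 were above background, against 51.6% of all genes (list median 12.90). Syntenin, Sdcbp, had 22969 ± 2291, Ezr 21587 ± 2216 and Actn1 10743 ± 764. Tiam1 had 9575 ± 939, by the 1 of its 3 probe sets that passed. Sdcbp2 had 397 ± 490 and passed on 1 array.

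Ligands that bind heparan sulfate were above background for 14 of 18 measured members, with a list median of 12.45. Shh had 64133 ± 8323, the heparin-binding growth factor genes Ptn and Mdk 36249 ± 4100 and 28949 ± 658, and Tgfb1 26743 ± 1810. Of the fibroblast growth factor genes on the list, Fgf1, named after its values were seen, had 4071 ± 332 and was called. Fgf2 at 215 ± 198, Fgf7 at 831 ± 195 and Fgf10 at 1016 ± 198 were not called, and passed on 0, 1 and 0 arrays. Absence of a transcript cannot be read from such a signal.

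All 16 measured basement membrane partners of perlecan were above background, against 51.6% of all genes, with a list median of 13.69 on the log2 scale. Lamb3 and Lama3, chains of the laminin under epithelia, had 57224 ± 6455 and 44897 ± 1567, the collagen IV gene Col4a1 had 49734 ± 2249 and the laminin chain gene Lamc1 25043 ± 2624. With every probe set of a gene required, 9 of the 16 passed, against 27.8% of all genes.

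Other proteoglycan genes outside the 10 members, listed with the hyaluronan receptor gene Cd44, were above background for 8 of 12. The share of all genes was 51.6%, and the list median was 11.99. The small proteoglycan genes Dcn and Bgn had 84169 ± 12175 and 78327 ± 12900, Cd44 had 35614 ± 1262, and agrin, Agrn, a basement membrane heparan sulfate proteoglycan, had 13782 ± 1288. Of the lecticans, the family to which versican belongs, aggrecan, Acan, had 1238 ± 150 and neurocan, Ncan, 1043 ± 272, each over the threshold on 2 arrays and not called. Brevican, Bcan, named after its values were seen, had 5618 ± 654 and was called, by 1 of its 2 probe sets, one whose suffix marks shared sequence. Taken by the median probe set, 4 of the 12 passed, a share close to the 34.7% of all genes.

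Marker genes of the cell types that the pool could hold were called by the same rule, which called 51.6% of all genes. All measured markers were above background for epithelium (6 of 6), ameloblasts (4 of 4), odontoblasts and bone cells (4 of 4), fibroblasts and dental mesenchyme (6 of 6), endothelium (7 of 7) and skeletal muscle (6 of 6), with 4 of 5 for macrophages, 4 of 5 for mural cells, 2 of 3 for Schwann cells and nerve and 2 of 7 for cartilage. The defining genes of ameloblasts and odontoblasts, Amelx, Ambn, Enam and Dspp, were among those called. Which cells gave the members' signals was not tested.

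The SD of log2 signal over the 4 arrays had a median of 0.19 among the 25 member probe sets above background, with a range of 0.08 to 0.47. For each of them, the 500 probe sets of nearest mean signal gave a typical SD, and the median of these was 0.14, with 19 of the 25 above the median of their neighbours. The 3 widest were Vcan 1427257_at (0.47), Sdc2 1417012_at (0.46) and Sdc3 1420853_at (0.43). Each was designed on the source sequence of a brighter probe set of the gene whose SD was at most 0.14. For Sdc2, another brighter probe set on that sequence (1417011_at) had an SD of 0.22. Among the 7 probe sets that did not pass, the SD ran between 0.12 and 2.10.

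**Figure D3:**
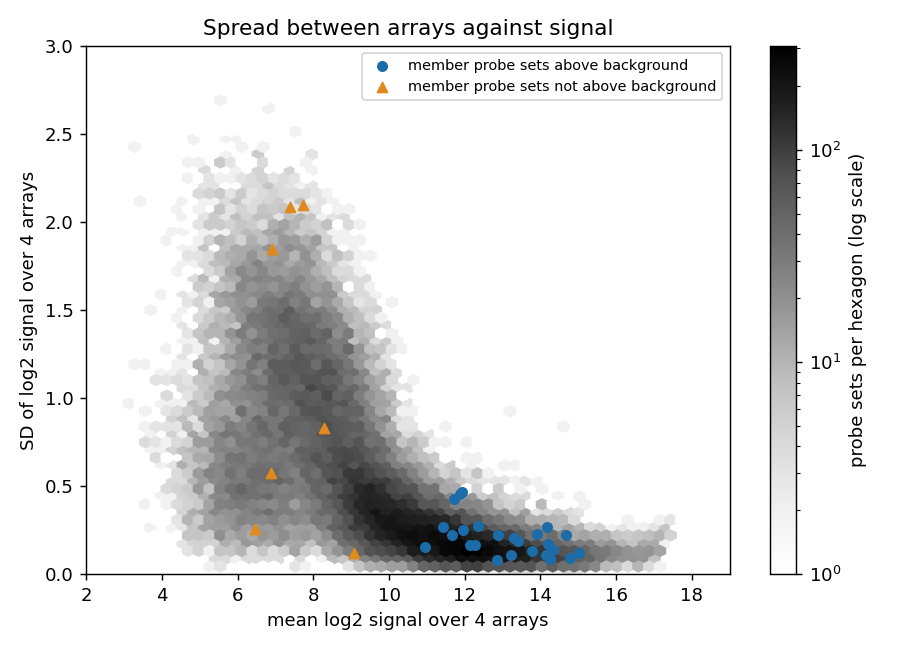
SD of log2 signal over the 4 arrays (vertical axis) against mean log2 signal (horizontal axis) for all probe sets (grey hexagons, darker for more probe sets) and for the 32 member probe sets. The 25 above background (blue circles) have SDs of 0.08 to 0.47, and the 7 not above it (orange triangles) reach 2.10.

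Array 4 gave the highest signal for 16 of the 25 member probe sets above background (64.0%), against 32.1% of all 14840 such probe sets. Array 2 gave the lowest for 12 of the 25. After quantile normalization, which gives all arrays the same distribution of signals, array 4 was still the highest for 13 of the 25 (52.0%), against 31.6% of all. Probe sets of 1 gene report the same RNA, so these 25 are not independent, and no test was made. The share over all such probe sets was not matched for signal, and the members had bright signals. Outside the members, Amelx, Col1a1, Dcn and Shh were also highest on array 4, while Cd44, Ptn and Adam10 were not. These genes are examples, picked by no rule after their values were seen. Whether the high share on array 4 is particular to the members was not tested. Without array 4 the median SD of the 25 was 0.13, and all 10 genes were still above background.

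**Figure D4:**
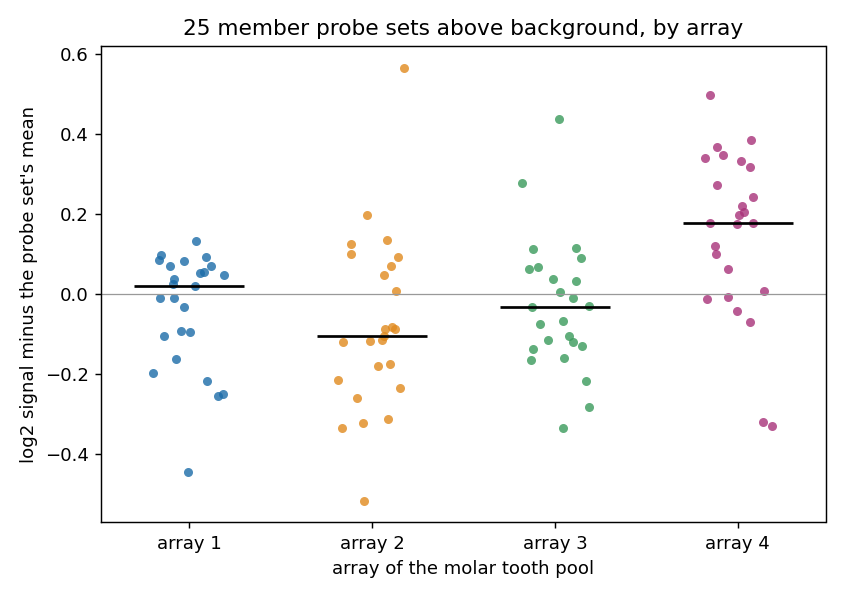
Log2 signal minus the probe set's own mean over the 4 arrays (vertical axis) for the 25 member probe sets above background (points), by array, with the median as a black line. The median is 0.18 on array 4, against 0.02, -0.11 and -0.03 on arrays 1, 2 and 3.

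The median signal of an array lay between 746 and 872, and the highest signal between 156681 on array 1 and 257968 on array 4. Pearson's r of log2 signal across probe sets, which are not independent replicates, ran between 0.968 and 0.978 over the 6 pairs of arrays among probe sets above background, and between 0.903 and 0.929 among all probe sets.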

How the data were processed

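The authors summarised the probes of each probe set into 1 signal intensity per array with MAS5, per the submitters' processing notes, and deposited these intensities on a linear scale for 4 arrays. The sources used here name no MAS5 version, settings, detection calls or genome build. Arrays have no read depth, so their number limits the precision. Of 45101 probe sets, 34945 named 1 gene in the platform annotation (18193 genes), 932 named several and were not used, 9160 had no name here and 64 were controls. Gene IDs kept the symbols of all 10 members in the GRCm38.p6 gene table.

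Calls against background were computed as described, with limma 3.58.1 (lmFit, eBayes with a trend) in R 4.3.3. They were also run on simulated data whose background probe sets lay well below the threshold. That run cannot give the rate of false calls near it. No pseudocount was used. Each gene's values are those of its brightest probe set by mean log2 signal. Named genes are every member and, per related list, up to 4 members above background with the highest signal and up to 3 not above it in alphabetical order. Some other genes, among them Bcan, Fgf1, Adamts4, Adamts5 and further Hs3st genes, were named after their values were seen. The members and lists were chosen with earlier results of these data known. Alternatives were other thresholds (the 99th and 75th percentile, or 55 testis and retina probe sets), 3 of 4 arrays, quantile normalization, the median probe set, probe sets without shared-sequence suffixes (_s_at, _x_at and _a_at), no trend and leaving out each array. Requiring every probe set of a gene, and the count of probe sets highest on each array, were added after seeing the data.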

Additional observations from a re-analysis of the deposited data

Results flagged for a closer look

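A gap test was run on 99 sets of 4 values, those of the 32 member probe sets and of the related genes named by rule. It picks out about 1 in 20 sets by chance, or 4.95 of 99. In 5 of the 99 sets, 1 array lay apart from the other 3. The array that lay apart was array 4 in 3 of them. On the log2 scale, Sdc3 1436482_a_at was 11.34 on array 4, against 11.76 to 11.79 on the other arrays, and stayed above background. Vcan 1447887_x_at was 4.59 on array 4, against 8.53 to 8.96, and Vcan 1433044_at was 4.26 on array 4, against 8.19 to 8.57. Both of these are below the threshold on every array. Chpf2 was 13.19 on array 3, against 13.48 to 13.51 on the others, and Tnfaip6 was 11.78 on array 1, against 11.09 to 11.18.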

How the results depend on the processing

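The count of 10 member genes above background was the same with the 99th or 75th percentile as threshold, with testis and retina probe sets as background, with 3 of 4 arrays, after quantile normalization, without shared-sequence suffixes and without any 1 of the arrays (10 to 10). The share of all genes was 48.2%, 65.3% and 55.8% under the 3 other thresholds. The count was 9 by the median probe set, where Vcan was not called and its log2 value over the threshold was -2.45, and 7 with every probe set of a gene required, where Sdc2, Gpc6 and Vcan were not called. The count of 25 member probe sets was the same under each of these thresholds, 3 of 4 arrays, quantile normalization and leaving out each array (25 to 25), and was 19 of 24 without shared-sequence suffixes. The limma count was 25 under each alternative run, leaving out each array (25 to 25) included. The related lists gave 104 genes, with 104 to 108 when an array was left out, 101 and 116 with the 99th and 75th percentile, 76 by the median probe set and 54 with every probe set required. The median SD of member probe sets was 0.17 after quantile normalization and 0.13 to 0.23 when an array was left out. No paired analysis was possible because the arrays form 1 group. What a signal near background means is limited by the mismatch subtraction of MAS5, which leaves dim probe sets noisy.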
